A study of Homo sapiens with 2 samples.

Results

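The genes described here write, copy and remove DNA methylation or form the core of Polycomb repressive complex 2 (PRC2), and they were followed in PC-3 cells exposed to Riccardin D (RD). Members were the probe sets that the platform annotation pairs with exactly 1 of 10 gene symbols, namely DNMT1, UHRF1, HELLS, DNMT3A and DNMT3B (DNA methylation), TET2 and TET3 (methylcytosine oxidation) and EZH2, EED and SUZ12 (PRC2). This gave 23 of 54613 probe sets, and 10 of the 19775 genes with a probe set of their own. The treated cells were PC-3 given 10 µmol/L RD for 24 h, and the control was PC-3 with the DMSO vehicle for the same time, each on 1 Affymetrix HG-U133 Plus 2.0 array. PC-3 is an androgen-independent line from a human prostate cancer, while RD, a macrocyclic bisbibenzyl, comes from a liverwort. The control's own label calls it untreated, and only the treatment protocol names DMSO.

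DNA methylation in human cells is copied at replication by the maintenance methyltransferase DNMT1, which UHRF1 brings to half-methylated CpG sites, while HELLS is a chromatin remodeller that opens nucleosomal DNA to this machinery. DNMT3A and DNMT3B add methyl groups to unmethylated CpG sites, and the TET dioxygenases oxidise methylcytosine as a step toward its removal. PRC2 methylates a lysine of histone H3 (H3K27), a repressive mark. EZH2 is its catalytic subunit, EED reads the mark and stimulates the enzyme, and SUZ12 holds the complex together. In prostate cancer EZH2 is known for high levels in advanced disease, and UHRF1, DNMT1, HELLS and EZH2 are commonly counted among the genes of dividing cells.

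By their brightest probe sets, the 5 DNA methylation genes all had lower signals in RD-treated cells, whereas the TET and PRC2 genes showed no such common direction. UHRF1 was 7.44-fold lower, HELLS 3.02-fold lower and DNMT1 2.23-fold lower, and these were the 3 of 10 member genes counted as lower. None was counted as higher, and EZH2 had the largest positive difference, at 1.52 times its control signal. Counting required a difference of 2-fold or more, with the higher signal no lower than 66.9, the median of all values of both arrays (the floor). By the same rule 13.3% of the 12818 genes at or above the floor were lower and 12.1% were higher. By sign alone, 6425 of these 12818 genes had a lower signal. DNMT3A and DNMT3B were lower by less than 2-fold. Each gene was represented by the probe set with the highest mean log2 signal. Signals are intensities on a linear scale made with MAS5, which summarises the short oligonucleotides of a probe set after mismatch correction.

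With 1 array per condition there was no replicate error, no test of RD was possible and no p-value is given, so precision is limited by the number of arrays. In place of it stands the scatter of log2 differences (RD minus control) between probe sets of 1 gene. Its SD was 0.76 over 18518 probe sets that reached the floor, and 0.34 over 8576 bright ones that reached 377.4, the 75th percentile of signals. It is no measure of the spread between cultures. In bulk RNA, fewer cells expressing a transcript and less of it per cell cannot be told apart. Mean signals without the highest and lowest 2% were 495.9 on the RD array and 495.8 on the control array. Of 5 epithelial markers, KRT18 (15416.6 in RD-treated and 10224.2 in control cells) and KRT8 (159.3 and 113.8) reached the floor. Both were read by probe sets whose names mark shared sequence. The other 3, KRT19, EPCAM and CDH1, lay under the floor on both arrays, so these markers alone do not settle the cell type. The androgen response gene KLK3 had 230.6 in RD-treated and 131.4 in control cells, and KLK2 and TMPRSS2 lay under the floor on both arrays. Of 7 blood, endothelial and fibroblast markers, PECAM1, DCN and COL1A1 reached it, with signals of 72.7 to 325.8 in RD-treated cells and 118.0 to 370.6 in control cells. The blood markers PTPRC and CD3E lay under it. The summed signal of these markers was 583.7 in RD-treated cells and 716 in control cells, and their part in the results was not tested.

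In RefSeq, 5 of the members carried, near an annotated start, letters of the kind that E2F transcription factors bind, and they are shown because they include both the members counted as lower and others that were not. RefSeq (GRCh38.p14) gave windows of 250 bases before to 50 after each annotated start, and all 10 members matched, with 20 windows. The stretches below run 5′ to 3′ on the strand of the gene, and capitals mark matches to TTTCCCGC, TTTCGCGC, TTTGCCGC or TTTGGCGC on either strand. The stretches lie at chr19:4909381-4909525 (plus strand) for UHRF1, chr10:94545668-94545812 (plus) for HELLS, chr19:10194929-10195073 (minus) for DNMT1, chr7:148884267-148884411 (minus) for EZH2 and chr17:31936758-31936902 (plus) for SUZ12.
UHRF1: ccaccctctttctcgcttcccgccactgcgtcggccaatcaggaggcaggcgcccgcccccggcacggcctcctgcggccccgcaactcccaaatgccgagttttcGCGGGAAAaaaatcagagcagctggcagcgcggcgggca
HELLS: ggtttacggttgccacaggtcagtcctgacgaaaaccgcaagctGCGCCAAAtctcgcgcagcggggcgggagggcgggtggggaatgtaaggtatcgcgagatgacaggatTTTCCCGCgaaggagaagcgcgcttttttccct
DNMT1: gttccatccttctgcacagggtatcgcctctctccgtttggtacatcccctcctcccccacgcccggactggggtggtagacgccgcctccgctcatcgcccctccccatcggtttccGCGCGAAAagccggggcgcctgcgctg
EZH2: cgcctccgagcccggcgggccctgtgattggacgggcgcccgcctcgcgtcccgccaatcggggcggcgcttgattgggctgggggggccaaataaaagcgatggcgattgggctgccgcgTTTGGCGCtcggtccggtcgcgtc
SUZ12: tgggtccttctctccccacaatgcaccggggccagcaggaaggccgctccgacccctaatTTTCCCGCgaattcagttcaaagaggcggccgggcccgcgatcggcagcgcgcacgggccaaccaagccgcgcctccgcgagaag
The first 4 stretches run from 120 bases before the start to 25 after it, and that of SUZ12 ends 105 bases before its start. HELLS held 2 matches in this stretch. The match of DNMT1 spanned its start and that of EZH2 began at base 2 after it.

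UHRF1 stood farthest from its control signal. Its single probe set had a signal of 440.6 in RD-treated cells against 3278.3 in control cells, a log2 difference of -2.90, which is 8.48 times the scatter SD of bright probe sets. Only 180 of the 12818 genes, itself included, were as low or lower, which is 1.4%. UHRF1 encodes the ubiquitin ligase that recognises half-methylated CpG sites and recruits DNMT1. Since 1 probe set reads this gene, its value has no second reading on the array.

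HELLS was read by 5 probe sets and every one was lower in RD-treated cells. The brightest had 351.0 in RD-treated cells against 1058.4 in control cells, a log2 difference of -1.59. The next had 169.9 in RD-treated cells against 394.8 in control cells (2.32-fold lower), and another had 111.2 against 272.4 (2.45-fold lower). The remaining pair had an RD signal under the floor, at 62.5 in RD-treated cells against 186.9 in control cells (at least 2.79-fold lower) and at 35.3 against 68.3 (at least 1.02-fold lower). The 3 probe sets with neither signal under the floor had log2 differences between -1.59 and -1.22.

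DNMT1, the maintenance methyltransferase, had 1507.7 in RD-treated cells against 3355.5 in control cells, a log2 difference of -1.15. This is 3.38 times the scatter SD of bright probe sets, and 10.8% of genes were as low or lower. Here too only 1 probe set reads the gene, and its name marks a sequence shared between transcripts. Of the 3 members counted as lower, DNMT1 lay nearest to the 2-fold limit.

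The methyltransferases that start methylation were less bright and stayed within 2-fold. DNMT3B had 157.2 in RD-treated cells against 264.0 in control cells, at 0.595 of control. DNMT3A had 189.4 in RD-treated cells against 299.8 in control cells by its brightest probe set, at 0.632 of control. Both differences were under 1 SD of the scatter at the floor, the one that applies at this brightness. The other probe sets of DNMT3A opposed each other. One had 19.9 in RD-treated cells against 112.0 in control cells (at least 1.67-fold lower), and the other had 69.3 against 17.4 (at least 1.04-fold higher). About 1 gene in 5 at or above the floor (19.3% for DNMT3B and 22.1% for DNMT3A) was as low or lower.

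**Figure D1:**
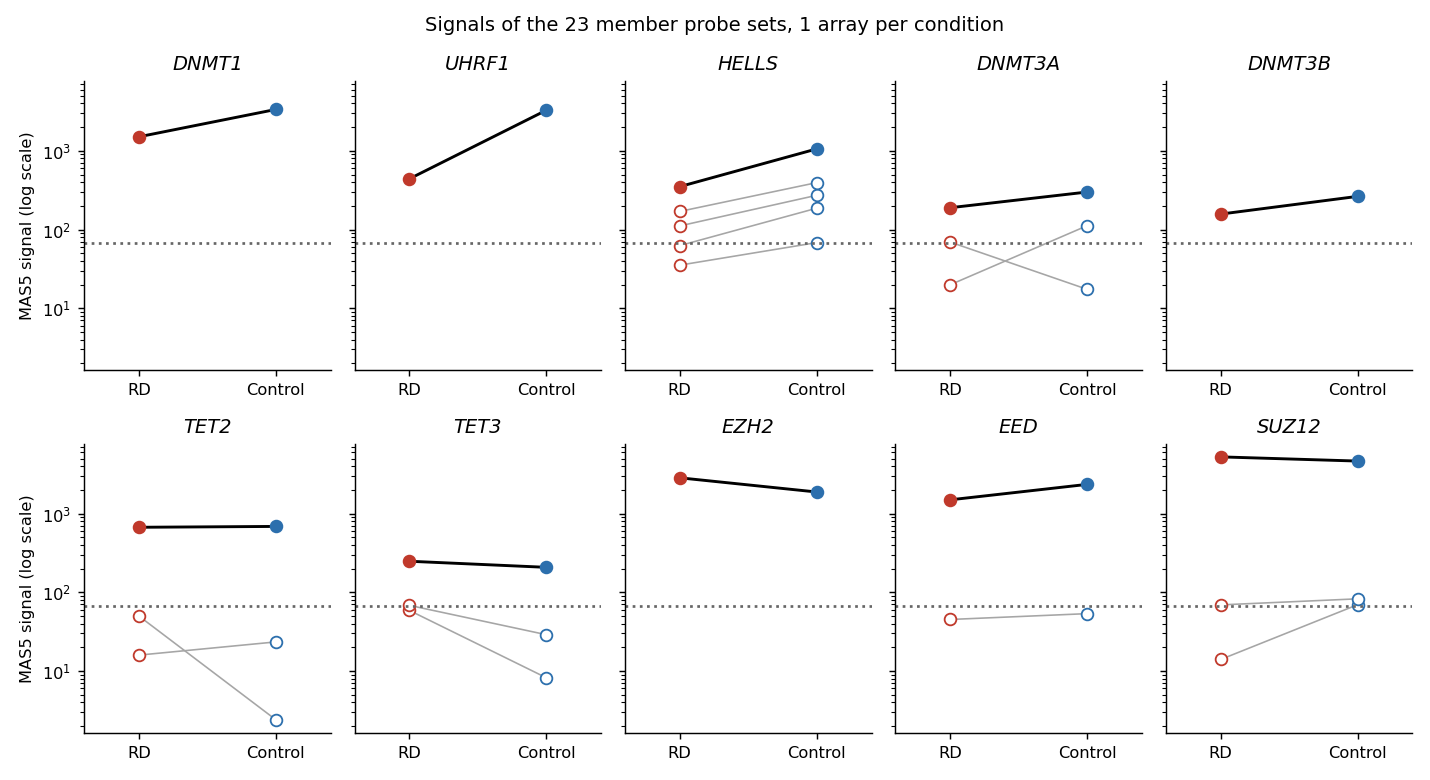
MAS5 signal (vertical, log scale) of each of the 23 member probe sets on the RD array (red, left) and the control array (blue, right), joined by a line, with 1 panel per gene. The brightest probe set of a gene is filled, its others are open, and the floor (66.9) is dotted. All 5 lines of HELLS rise toward the control, that of UHRF1 is the steepest among the filled symbols, and the lines that cross belong to probe sets near or under the floor.

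The TET genes differed by less than 1 SD of the scatter by their brightest probe sets. TET2, often mutated in blood cancers, had 668.9 in RD-treated cells against 685.7 in control cells, at 0.975 of control. Its other 2 probe sets lay under the floor on both arrays, with 49.9 and 15.9 in RD-treated cells against 2.4 and 23.4 in control cells. TET3 had 247.7 in RD-treated cells against 207.3 in control cells by its brightest probe set, at 1.19 times control. Of its dimmer probe sets, one had 68.2 in RD-treated cells against 28.9 in control cells (at least 1.02-fold higher), and the other had 58.8 against 8.2, both under the floor. TET1, the third enzyme of this family, had 44.6 in RD-treated cells and 41.8 in control cells and is therefore not ordered.

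The PRC2 core was split. EZH2 had 2842.7 in RD-treated cells against 1876.3 in control cells, a log2 difference of 0.60 by its single probe set, whose name marks shared sequence. This is 1.76 times the scatter SD of bright probe sets, and 22.4% of genes were as high or higher. SUZ12 had 5243.2 in RD-treated cells against 4639.1 in control cells, at 1.13 times control and within 1 SD, and the median over its 3 probe sets at or above the floor was on the other side of 0, at -0.26. EED lay on the other side, with 1493.2 in RD-treated cells against 2346.3 in control cells, at 0.636 of control and 1.91 times the SD.

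The dim probe sets of the PRC2 genes added little. SUZ12 had one with 69.1 in RD-treated cells against 82.5 in control cells, and one with 14.0 against 69.5 (at least 1.04-fold lower). A further probe set, shared between SUZ12 and its pseudogene SUZ12P1 and so not a member, had 505.4 in RD-treated cells against 804.1 in control cells. Its ratio of 0.629 opposes the 1.13 of the brightest SUZ12 probe set, and the 2 sources cannot be told apart in it. EED had a second probe set under the floor on both arrays, with 45.1 in RD-treated cells and 53.5 in control cells. The 3 core subunits thus had ratios of 1.52, 1.13 and 0.636, none of them past 2-fold.

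Counted over probe sets, 19 of the 23 reached the floor, 8 were lower and 2 were higher. Over all probe sets of 1 gene at or above the floor, 13.2% were lower and 13.4% were higher. Of the 8, HELLS gave 4, and UHRF1, DNMT1, DNMT3A and SUZ12 gave 1 each. Those of DNMT3A and SUZ12 had an RD signal under the floor, and their bounds were only 1.67-fold and 1.04-fold. With dim signals raised to the floor, 6 probe sets were lower and 0 were higher. The 2 counted as higher were the dim probe sets of DNMT3A and TET3, whose RD signals of 69.3 and 68.2 barely passed the floor. The median log2 difference of the 10 member genes was -0.66, against -0.0022 over all genes at or above the floor. Over probe sets whose suffix marks no shared sequence it was -0.35, with DNMT1, DNMT3B, EZH2 and EED left out. By the brightest probe sets the median was -1.15 over the 5 DNA methylation genes, 0.11 over the TET genes and 0.18 over the PRC2 genes. HELLS probe sets share a target and are not replicates of the treatment.

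**Figure D2:**
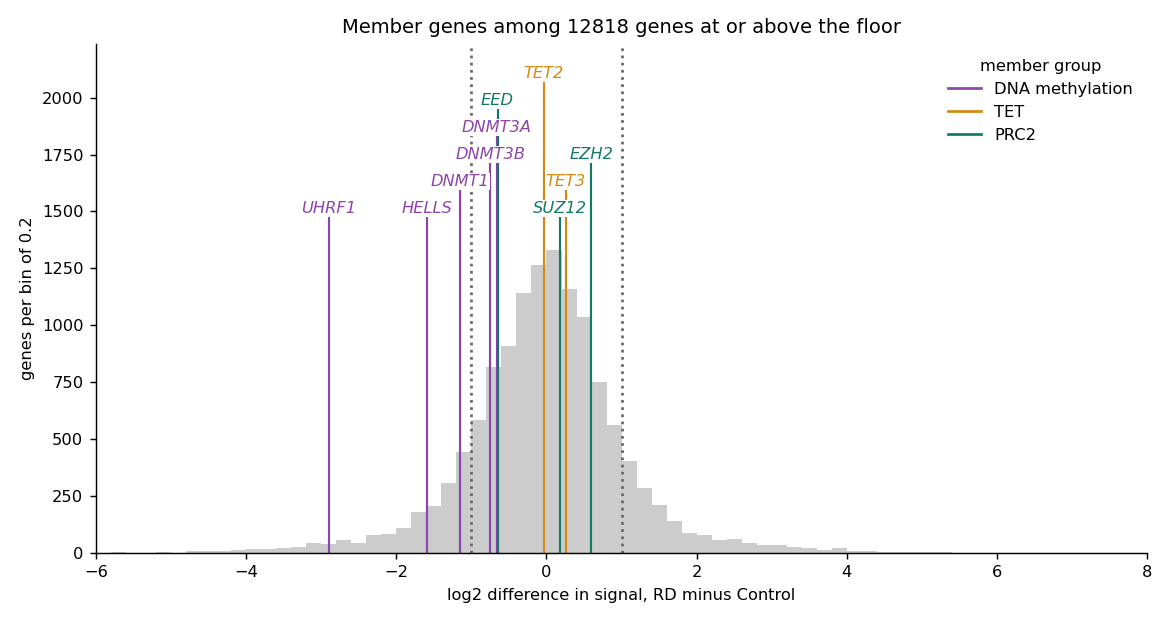
Number of genes (vertical, bins of 0.2) by log2 difference in signal, RD minus control (horizontal), for the 12818 genes at or above the floor, with the brightest probe set of each member as a line in the colour of its group. Dotted lines mark 2-fold, and UHRF1 (-2.90), HELLS (-1.59) and DNMT1 (-1.15) lie beyond the one on the left.

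Genes of dividing cells had lower signals on the RD array than on the control array. Of 15 S phase and proliferation markers, all had a lower signal and 14 were counted as lower, with log2 differences between -3.74 and -0.94 and a median of -2.06. UHRF1 (-2.90), HELLS (-1.59) and DNMT1 (-1.15) lay inside this range, while EZH2 (0.60) lay above all 15 markers. What part the lower signal of proliferation genes in RD-treated cells has in the lower member signals was not tested. Of 10 E2F and DP factor genes, which control entry into S phase, 4 were lower and 1 higher (median -0.36). That of the list was -1.01 over probe sets whose suffix marks no shared sequence, which need not cover the same genes. Over all genes at or above the floor, 13.3% were lower and 12.1% were higher. E2F8, a repressor of the family, had 109.0 in RD-treated cells against 674.1 in control cells (6.18-fold lower), and the activator E2F2 had 118.7 against 359.6 (3.03-fold lower). E2F5 had 647.6 in RD-treated cells against 287.3 in control cells (2.25-fold higher).

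The letters shown above were found in windows of 5 of 10 member genes, against 6.55% of the 10415 genes at or above the floor that had a window. By windows, they stood in 30% of the 20 member windows, against 3.31% of all 35116 windows. UHRF1, HELLS and DNMT1, the members counted as lower, held them, and so did EZH2 and SUZ12, which were not counted as lower. By their brightest probe sets both EZH2 and SUZ12 had the higher signal in RD-treated cells, SUZ12 within 1 SD of the scatter. The median over the 3 SUZ12 probe sets at or above the floor was -0.26. Over all genes with these letters 16.1% of 682 were lower and 9.82% were higher, and over genes without them 12.8% of 9733 were lower and 11.9% were higher. The letters CCAAT, which the factor NF-Y binds, stood on either strand in 40% of the 20 member windows, against 34.6% of all windows, and in 70% of the member genes, against 43% of the 10415 genes. EZH2 held 4 of these in 1 window, the most of any member window. No match of one kind overlapped one of the other in the member windows. A match says only that the letters are there.

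**Figure D3:**
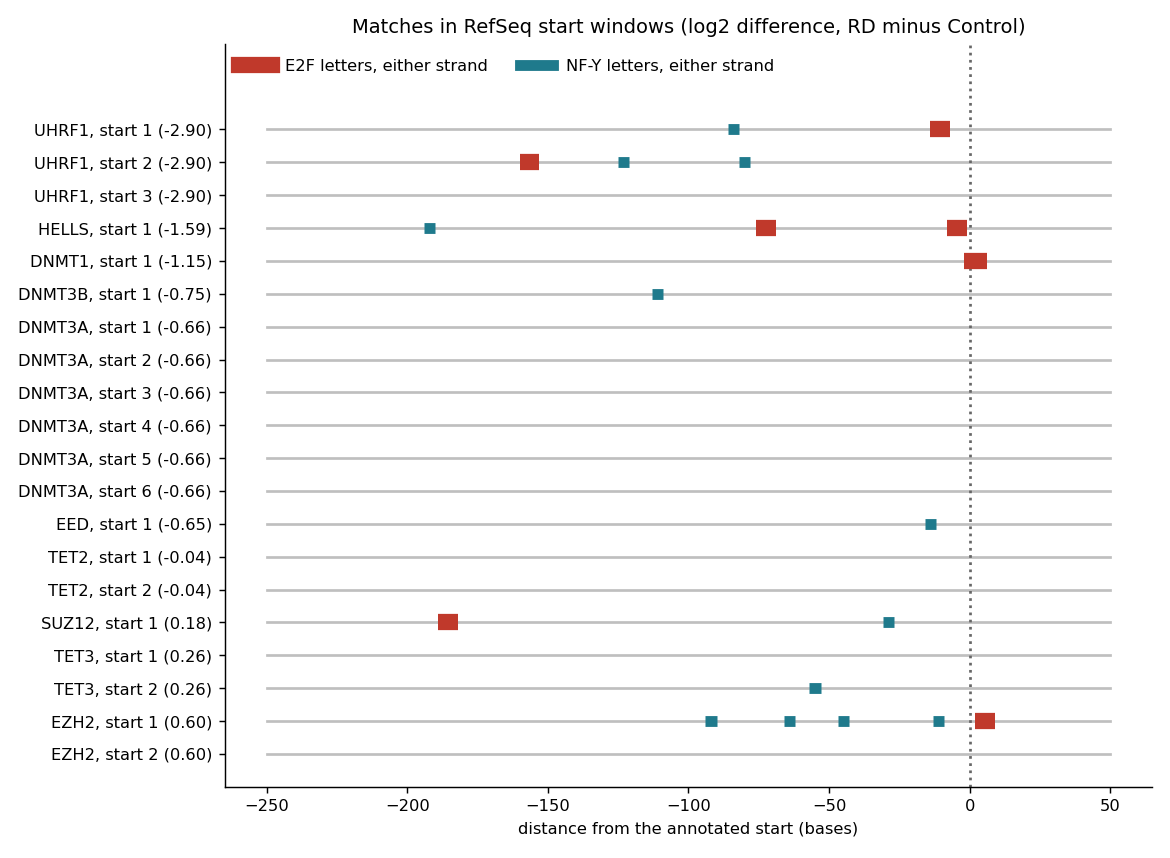
Positions of E2F letters (red) and NF-Y letters (blue-green) on either strand in each RefSeq start window of the members, as distance from the annotated start in bases (horizontal), ordered by log2 difference, RD minus control, in brackets. Red marks occur in UHRF1, HELLS and DNMT1 at the top and in SUZ12 and EZH2 near the bottom, and none in the 6 windows of DNMT3A.

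Partners of the DNA methyltransferases were mixed. Of 10 genes at or above the floor, 3 were lower and none higher, with a median of -0.36. That of the list was 0.05 over probe sets free of a shared-sequence suffix, which need not cover the same genes. By the same rule, 13.3% of all genes were lower and 12.1% were higher. TRDMT1, which methylates transfer RNA and is related in sequence to the DNA methyltransferases, had 79.4 in RD-treated cells against 336.7 in control cells (4.24-fold lower). PCNA, the replication clamp to which DNMT1 binds, had 3956.5 in RD-treated cells against 15458.4 in control cells (3.91-fold lower). CDCA7, which brings HELLS to chromatin, had 659.9 in RD-treated cells against 2025.5 in control cells (3.07-fold lower). UHRF2, the paralog of UHRF1, had 1903.9 in RD-treated cells and 1833.0 in control cells, a ratio near 1 beside the 0.134 of UHRF1. USP7, which deubiquitinates UHRF1 and DNMT1, had 3497.5 in RD-treated cells and 2087.9 in control cells, within 2-fold.

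Genes of the methyl-CpG reader families (MBD and ZBTB) and partners of demethylation stayed mostly within 2-fold. The families gave 9 genes, taken by family, so not each need bind methylated CpG. Of these 9, 7 had a higher signal, 1 was counted as higher and none as lower. Their median was 0.20, where 12.1% of all genes were higher. The reader counted as higher was MBD1, a binder of methylated CpG, with 2661.3 in RD-treated cells against 1044.6 in control cells (2.55-fold higher), and all 5 of its probe sets at or above the floor were higher. Of 8 partners of active demethylation, 4 had a higher and 4 a lower signal, and 2 were counted as higher and none as lower. TDG, the glycosylase that excises oxidised methylcytosine, had 2754.7 in RD-treated cells against 1328.0 in control cells (2.07-fold higher). CXXC5 had 125.6 in RD-treated cells against 60.5 in control cells (at least 1.88-fold higher). Under the alternatives the number counted as higher ran from 0, over probe sets without a shared-sequence suffix, to 4, at 1.5-fold. The number counted as lower ran from 0 to 2, the latter with the median of a gene's probe sets. These 8 genes had a median of 0.32. The median of the list lay between -0.11 and -0.06 under 4 alternatives, which can change the genes that are counted. They were quantile normalization, the floor at the 75th percentile, dim signals raised to the floor and the median of a gene's probe sets.

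Among the partners of PRC2, 1 of 10 was lower and 2 were higher, with a median of -0.17. Over all genes at or above the floor, 13.3% were lower and 12.1% were higher. PHF19, a Polycomb-like protein that brings PRC2 to chromatin, had 1011.0 in RD-treated cells against 4525.6 in control cells (4.48-fold lower), with all 3 probe sets lower. LCOR, whose locus also encodes a PRC2 subunit, had 1593.4 in RD-treated cells against 561.8 in control cells (2.84-fold higher), and LCORL had 1195.9 against 445.0 (2.69-fold higher). EZH1, the paralog of EZH2, had 462.7 in RD-treated cells and 525.6 in control cells. The histone-binding subunits RBBP4 and RBBP7 were at 0.898 and 0.522 of control, within 2-fold. Of 17 subunits of the sister complex PRC1, 1 was higher and none lower, and the median was 0.02. It was PHC3, with 2044.9 in RD-treated cells against 857.5 in control cells (2.38-fold higher).

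Enzymes that oppose Polycomb marks had 3 higher and no lower members of 10, with a median of 0.61. Over all genes at or above the floor, 12.1% were higher and 13.3% were lower. By sign, 8 of the 10 had a higher signal. The other 2 were NSD2 (840.8 in RD-treated and 1376.9 in control cells) and ASXL1 (1700.5 and 2259.6). NSD3, an H3K36 methyltransferase, had 1571.2 in RD-treated cells against 593.7 in control cells (2.65-fold higher). CREBBP, an acetyltransferase for H3K27, had 2803.5 in RD-treated cells against 1360.2 in control cells (2.06-fold higher). KDM6B, a demethylase of the PRC2 mark, had 573.1 in RD-treated cells against 279.5 in control cells (2.05-fold higher). Its relative KDM6A had 148.0 in RD-treated cells and 130.1 in control cells. Enzymes and readers of the other main repressive mark, H3K9 methylation, had 3 lower and no higher members of 9, with a median of -0.88. That of the list was -0.45 over probe sets whose suffix marks no shared sequence, which need not cover the same genes. SUV39H1 had 114.9 in RD-treated cells against 510.1 in control cells (4.44-fold lower), and CBX5, which encodes HP1 alpha, had 2024.6 against 4423.7 (2.18-fold lower) with all 6 probe sets lower.

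**Figure D4:**
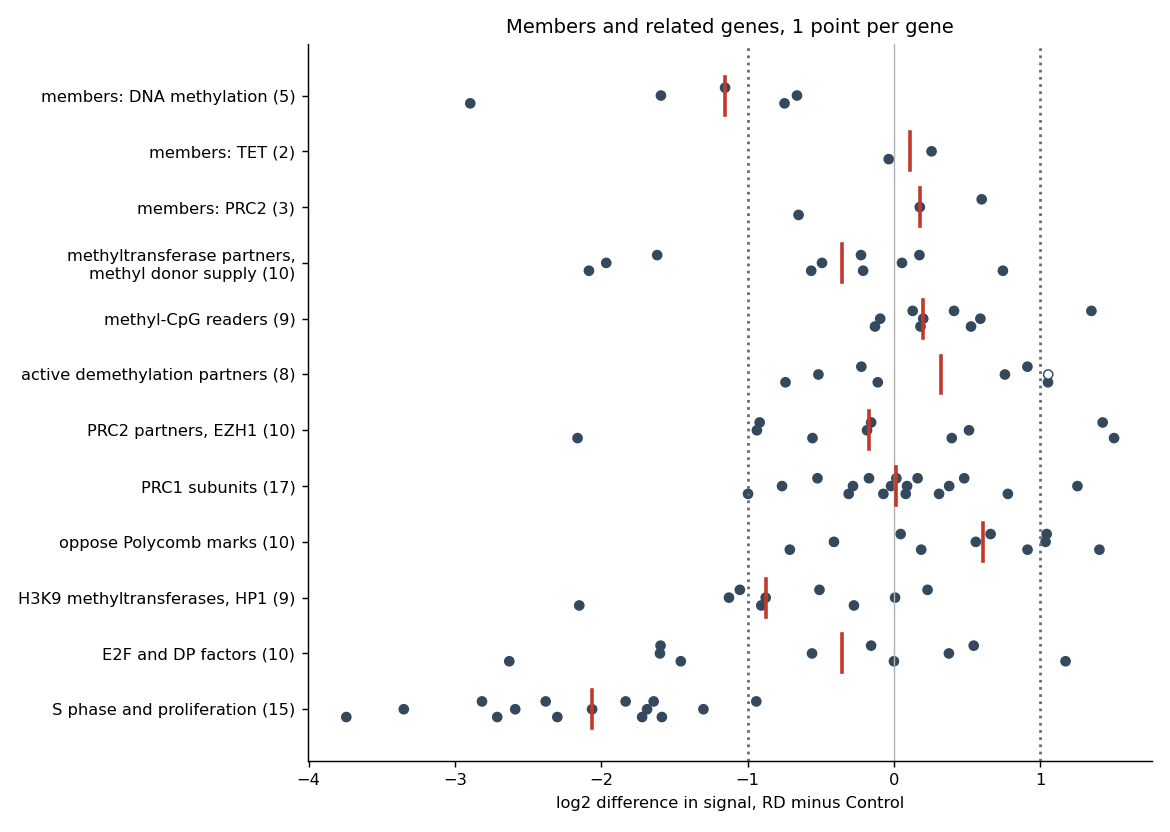
RD minus control difference in log2 signal (horizontal) in the member groups and 9 of the related lists, with 1 point for a gene that reached the floor and the number of genes in brackets. Medians are red bars, 2-fold is dotted, and CXXC5, the one plotted gene with 1 signal under the floor, is the open circle. The germline, EZH2-repressed and cell type marker lists are not plotted. The plotted medians run between -2.06 for S phase and proliferation markers and 0.61 for the enzymes that oppose Polycomb marks.

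Genes that DNA methylation or EZH2 is known to hold down were mostly too dim to read. Of 12 germline genes silenced by promoter methylation, 10 lay under the floor on both arrays, so a difference in them was not detectable at this signal. The other 2 were SYCP3 (77.4 in RD-treated and 80.3 in control cells) and HORMAD1 (32.8 and 73.7, at least 1.10-fold lower), both genes of meiotic chromosomes. Of 11 genes described as EZH2-repressed, 6 reached the floor, 2 were higher and 1 was lower. By the same rule, 12.1% of all genes were higher and 13.3% were lower. CDKN1C, an inhibitor of cyclin-dependent kinases, had 281.7 in RD-treated cells against 54.2 in control cells (at least 4.21-fold higher), with all 3 probe sets at or above the floor higher. FBXO32, a ubiquitin ligase subunit, had 187.8 in RD-treated cells against 56.6 in control cells (at least 2.81-fold higher). PPP2R2B, a phosphatase subunit, had 35.1 in RD-treated cells against 89.4 in control cells (at least 1.34-fold lower). The median of these 6 was -0.13. That of the list was 0.79 over probe sets without a shared-sequence suffix, which need not cover the same genes.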

How the data were processed

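Total RNA from PC-3 cells was read on Affymetrix HG-U133 Plus 2.0 arrays, 1 for RD and 1 for the control. The authors deposited linear intensities, named as MAS5 signals in the submitters' processing notes. Neither the MAS5 version nor its scaling target is given in the sources used here, and the table holds no detection calls. The dose is not in the labels and comes from the study's supplement.

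The log2 difference was that of RD minus control, without an offset and without further scaling. Of 54613 probe sets, 41091 had 1 gene, 1801 had several and were not used, and 11721 were unnamed here. RefSeq (GRCh38.p14) changed no symbol. A difference with 1 signal under the floor is given as a bound against it. Lists were described by counts and medians, with no set test. The text names all members and up to 2 counted genes at each end of a list. TET1, UHRF2, USP7, CDCA7, EZH1, RBBP4, RBBP7, KDM6A and KDM6B were named for their roles after their values were seen, as were the markers and SYCP3. NSD2 and ASXL1 were named as the genes of their list with a lower signal. Members and lists were chosen with earlier results of these data known, and the start windows were searched after the values were seen. Some genes of the lists were not analysed here. The scripts were tested on simulated data. Alternatives were other scalings, an offset of 17.1, other floors and thresholds, other probe set choices, and raising dim signals to the floor. The work used pandas 2.3.3 and numpy 2.4.6 under Python 3.11.15, with figures by matplotlib 3.10.9.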

Additional observations from a re-analysis of the deposited data

How the results depend on the processing

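The 3 member genes counted as lower were 6 at a 1.5-fold threshold, where 1 (EZH2) was counted as higher. Of all genes at or above the floor, 22.4% were as low as EED, the least low of these 6, or lower. As high as EZH2 or higher were 22.4%. Shares called over all genes were counted only at 2-fold with the main floor, so the counts at other settings have no share beside them. The 8 member probe sets counted as lower were 6 with dim signals raised to the floor, 4 with the floor at the 75th percentile and 4 at a 3-fold threshold. The 2 counted as higher were 1 with the offset, 4 with no floor, 0 with the floor at the 75th percentile, 0 with dim signals raised to the floor and 1 at 3-fold. The scatter SD of 0.76 was 0.34 with the floor at the 75th percentile. UHRF1 stayed between -2.92 and -2.85 on the log2 scale under the alternatives that gave it a value, HELLS between -1.62 and -1.29, DNMT1 between -1.18 and -1.15 and EZH2 between 0.58 and 0.60. Using only probe sets whose suffix marks no shared sequence left DNMT1, DNMT3B and EZH2 without a value and EED under the floor. Taking the median of a gene's probe sets, SUZ12 was at -0.26 and TET3 at 0.75, and of the 73 values of member genes under alternatives these were the 2 that moved by more than 0.34. Of the counts and medians of the related lists, 72 moved under an alternative, most of them counts of a few genes, and 315 did not. No paired analysis was possible because each condition had 1 array. MAS5 signals under the floor are noisy, so members and list genes there have no order.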
